A study of Homo sapiens with 6 samples.

Results

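CA9 and 7 other genes that regulate acid and bicarbonate were examined in the established human melanoma line A375 after 6 h with 0.01% ozonated olive oil (OZO) or 0.01% olive oil (OLO, the control). The group holds 3 carbonic anhydrases (CA9, CA12 and CA2), 2 bicarbonate transporters (SLC4A2 and SLC4A7), 2 monocarboxylate transporters (SLC16A1 and SLC16A3) and BSG, which carries those transporters to the cell surface. All 8 were found by symbol among the 28395 genes of the deposited comparison. They were chosen by their known role and with the measured fold changes of this comparison in view, so their changes are given as a description and support no statement about the group. The 6 libraries, all of wild-type A375 cells, make 2 groups of 3, which shared the medium, serum and exposure time and differed in the oil. The study describes the libraries of a group as independent experiments. Levels in each single library were not analysed here, and every fold change, standard error and adjusted p-value below is that of the authors' limma-voom fit of all 6 libraries.

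Cells that run glycolysis at a high rate make lactate, protons and CO2, and must move them out to keep their interior near neutral. Carbonic anhydrases turn CO2 and water into bicarbonate and a proton. CA9 and CA12 do so on the outer face of the cell and CA2 in the cytosol. SLC4A7 brings sodium and bicarbonate in, SLC4A2 exchanges bicarbonate for chloride, and SLC16A1 (MCT1) and SLC16A3 (MCT4) carry lactate together with a proton. CA9 is silent in most adult tissues and is a textbook target of the hypoxia-inducible factors, which bind the core letters ACGTG or GCGTG.

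The promoter windows of CA9, CA12 and SLC16A3 are shown because all of them had few reads in OLO cells and CA9 alone among them left that level in OZO cells. Each window runs from 250 bases before to 50 bases after an annotated transcript start in RefSeq (GRCh38.p14), in the direction of the gene, and capitals mark a hypoxia core on either strand (CACGT and CACGC are the cores read from the opposite strand). The CA9 window lies at chr9:35673678-35673977 on the plus strand, the CA12 window at chr15:63381797-63382096 on the minus strand, and the SLC16A3 window, 1 of 5 for that gene, at chr17:82228792-82229091 on the plus strand. Of those 5 SLC16A3 windows the one shown is the only window with ACGTG.
CA9: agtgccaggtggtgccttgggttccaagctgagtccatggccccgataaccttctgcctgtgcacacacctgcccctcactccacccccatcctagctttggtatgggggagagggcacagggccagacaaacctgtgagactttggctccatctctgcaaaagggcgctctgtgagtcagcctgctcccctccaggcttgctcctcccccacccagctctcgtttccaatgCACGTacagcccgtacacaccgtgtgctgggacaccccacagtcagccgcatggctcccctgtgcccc
CA12: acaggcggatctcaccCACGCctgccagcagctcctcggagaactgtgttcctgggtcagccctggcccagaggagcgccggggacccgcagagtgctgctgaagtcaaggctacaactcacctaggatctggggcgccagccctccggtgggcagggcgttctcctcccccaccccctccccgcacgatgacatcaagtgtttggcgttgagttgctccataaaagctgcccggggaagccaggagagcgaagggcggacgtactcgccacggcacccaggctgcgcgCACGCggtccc
SLC16A3: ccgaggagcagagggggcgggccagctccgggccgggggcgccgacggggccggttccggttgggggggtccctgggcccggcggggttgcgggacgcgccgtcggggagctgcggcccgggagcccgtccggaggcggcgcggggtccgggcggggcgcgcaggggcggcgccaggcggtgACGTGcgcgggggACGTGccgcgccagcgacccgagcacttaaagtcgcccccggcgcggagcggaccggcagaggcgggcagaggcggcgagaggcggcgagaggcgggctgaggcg

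The CA9 window held ACGTG once, on the opposite strand, at bases -18 to -14 from the annotated start, and no GCGTG. The SLC16A3 window held ACGTG at 2 places on the gene's own strand, at -68 to -64 and at -55 to -51. The CA12 window held no ACGTG and GCGTG at 2 places, both on the opposite strand. Over all 35116 windows of this length, 21.4% held ACGTG, 36.5% held GCGTG and 48.4% held either, so the letters alone are common. Of the 8 genes, 6 had a window in the table and 15 windows were searched in all, and neither CA2 nor SLC16A1 was among them. ACGTG was present in the window of CA9, in 2 of 4 windows of SLC4A2, in 1 of 5 windows of SLC16A3 and in 1 of 2 windows of BSG. The 2 SLC4A2 windows overlap and hold the same ACGTG matches. GCGTG was present in the window of CA12 and in all 4 windows of SLC4A2. It was also in 1 of 2 windows of SLC4A7, 2 of 5 of SLC16A3 and 1 of 2 of BSG. The core of the antioxidant response element, TGACNNNGC, was present in 1 of the 15 windows, that of BSG, where it overlaps the ACGTG match, and in 13.3% of all windows. A match is a description of letters and not of a bound site.

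The reads behind these genes span a wide range. The lowest values of the deposited mean expression correspond to no read in any library and give 18409903 counted fragments as the geometric mean size of a library, and the reads of each group were worked out from a gene's mean level and its fold change. These implied reads are means on a log scale for a library of that size. Markers of the melanocytic lineage were partly present in these cells. SOX10, a transcription factor of the lineage, had 1265 implied reads under OLO and 667 under OZO, MITF had 539 and 461, and the pigment enzyme gene TYR was unread. Of the 8 lineage markers 5 averaged 10 reads or more, with a summed level of 104 CPM in OLO and 67.6 CPM in OZO. Of 14 markers of keratinocytes, fibroblasts, endothelial cells and leukocytes, 6 averaged 10 reads or more. The summed levels of these 4 lists were 30.3, 5.88, 1.38 and 1.09 CPM in OLO and 29.4, 6.91, 1.02 and 0.827 CPM in OZO. No marker of any of these lists passed an adjusted p-value of 0.05, and their part in the results was not tested.

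**Figure D1:**
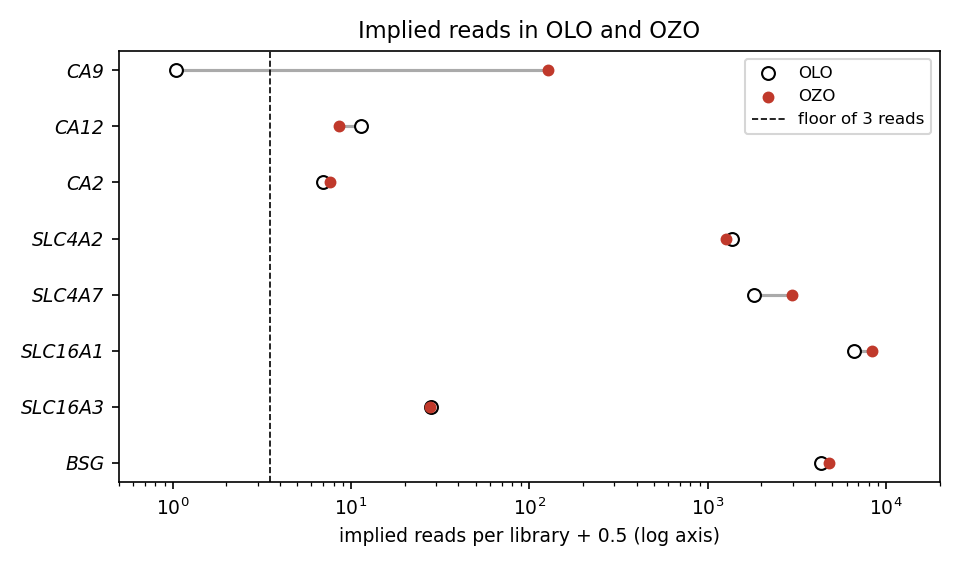
Implied reads per library (plus 0.5, log axis) of the 8 genes in OLO (open circles) and OZO (red circles), with a dashed line at the floor of 3 reads. CA9 moves from 0.54 to 127 reads across the floor, CA12, CA2 and SLC16A3 stay between 6.47 and 27.7 reads, and the other 4 genes lie at 1272 reads or more in both groups.

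Of the 8 genes, 2 passed an adjusted p-value of 0.05, CA9 and SLC16A1, and both were higher in OZO. Over all 28395 genes 7.04% passed, and 3.98% passed as higher in OZO. Among the 13773 genes averaging 10 reads or more 13.6% passed. Because the genes were chosen with this comparison in view, nothing is read from the share of 2 in 8.

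CA9 (chromosome 9, 35673928 to 35681159, plus strand) had 0.54 implied reads with OLO and 127 with OZO. The OLO mean was thus below the floor of 3 reads at this depth, and the OZO mean was well above it. Whether a single OLO library exceeded the floor is not known here. Against that floor CA9 was at least 36.5-fold higher in OZO. The fitted log2 fold change of CA9 was 6.94 ± 1.04 (SE, adjusted p-value 0.0274). The 95% interval of the fitted value ran from 4.27 to 9.61 on the log2 scale, or from 19.3-fold to 780-fold. Its lower end lies under the 36.5-fold bound, which takes the OZO reads as exact and leaves out the spread between libraries. This standard error was larger than that of 99.1% of the genes averaging 10 reads or more.

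CA12 (chromosome 15, 63321378 to 63381846, minus strand), the other carbonic anhydrase with an outward-facing active site, had 10.8 implied reads under OLO and 8.07 under OZO. Its log2 fold change was -0.40 with a standard error of 0.46, and the 95% interval from -1.58 to 0.78 holds changes in both directions. Cytosolic CA2 had 6.47 implied reads under OLO and 7.09 under OZO, with a log2 fold change of 0.12 and a standard error of 0.47. At the fitted standard error the estimate would have had to reach 5.19-fold for CA12 and 5.43-fold for CA2 to pass. Smaller changes of either gene could thus have been missed. Both were read in the control cells at a higher level than CA9, and per kilobase of the canonical transcript the level of CA12 in OLO was 0.101 CPM and that of CA2 0.242 CPM. The level of CA9 per kilobase was 0.0366 CPM in OLO, under the floor, and 4.49 CPM in OZO. The OZO level was 58.8 times that of CA12 in the same group. Levels in CPM keep the 0.5 that the fit adds to each count, which makes up much of the CA9 level in OLO.

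**Figure D2:**
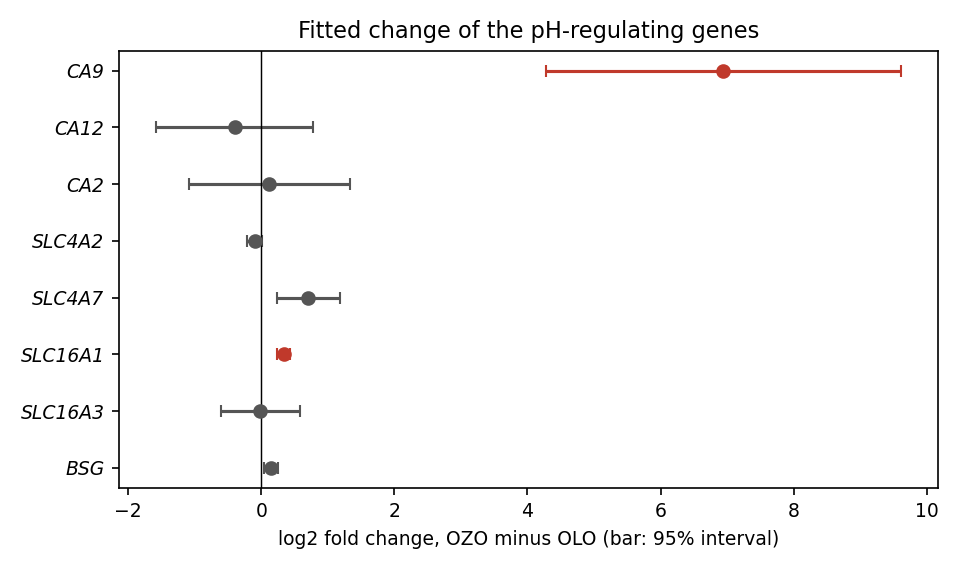
Fitted log2 fold change of the 8 genes, OZO minus OLO, with the 95% interval of the authors' moderated t as bars. Red marks an adjusted p-value under 0.05. CA9 stands at 6.94 with the widest interval of the 8, and the intervals of CA12, CA2, SLC4A2 and SLC16A3 include 0.

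The 2 bicarbonate transporters were both well read, and neither passed in the fit as deposited. SLC4A7 (chromosome 3, 27372723 to 27484384, minus strand), which loads bicarbonate into the cell, had 1816 implied reads under OLO and 2960 under OZO. This is a log2 fold change of 0.70 (SE 0.18), or 1.63-fold with a 95% interval from 1.17-fold to 2.26-fold, and the adjusted p-value was 0.106. Its estimate would have had to reach 1.94-fold to pass with that standard error. SLC4A2 (chromosome 7, 151058200 to 151076527, plus strand), which lets bicarbonate out against chloride, had 1363 implied reads under OLO and 1272 under OZO, a log2 fold change of -0.10 ± 0.04 (SE, adjusted p-value 0.249). The 95% interval of its fold change ran from 0.863-fold to 1.01-fold. Subtracting the median of all genes, 0.19, moved the log2 value to -0.29, outside that interval, and made SLC4A2 a called gene, lower in OZO. That median includes 7012 unread genes at 0.33 each, a value that reflects library size and not reads. Subtracting the median of genes averaging 10 reads or more, -0.01, left SLC4A2 at -0.09 and not called. Per kilobase of the canonical transcript SLC4A7 had a lower level than SLC4A2 in OLO (12.2 and 17.99 CPM) and a higher one in OZO (19.9 and 16.8 CPM). The order in OLO reversed when the whole exon length was used, with 10.3 CPM for SLC4A7 and 9.79 CPM for SLC4A2.

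The lactate transporters were of very unequal level. SLC16A1 (chromosome 1, 112911847 to 112956196, minus strand), encoding the widely expressed MCT1, had 6627 implied reads under OLO and 8364 under OZO. Its log2 fold change was 0.34 (SE 0.04), a rise of 26.2% with a 95% interval from 1.18-fold to 1.35-fold, and the adjusted p-value was 0.0166. Subtracting the median of all genes, 0.19, left 0.15 and ended the call of SLC16A1, whereas subtracting the median of genes averaging 10 reads or more, -0.01, left it called at 0.34. SLC16A3 (chromosome 17, 82217934 to 82240086, plus strand), encoding MCT4, the transporter usually associated with strongly glycolytic cells, had 27.7 implied reads under OLO and 27.4 under OZO. Its log2 fold change was -0.01 with a standard error of 0.23, and the 95% interval from 0.657-fold to 1.49-fold holds both a fall and a rise. The estimate of SLC16A3 would have had to reach 2.28-fold to pass with that standard error. Per kilobase of the canonical transcript the level of SLC16A1 was 163 times that of SLC16A3 in OLO and 208 times in OZO, and the ratio was larger still, 343 and 437, over the whole exon length.

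BSG (chromosome 19, 571283 to 583493, plus strand) encodes basigin, the membrane protein that both transporters need to reach the surface. It had 4293 implied reads under OLO and 4759 under OZO, a log2 fold change of 0.15 ± 0.04 (SE, adjusted p-value 0.125). The 95% interval of its fold change ran from 1.03-fold to 1.19-fold, and subtracting the median of all genes turned the log2 value to -0.04. Subtracting the median of genes averaging 10 reads or more left the log2 value at 0.15. Per kilobase of the canonical transcript BSG was the most abundant of the 8 genes in both groups, with 120 CPM in OLO and 133 CPM in OZO, followed by SLC16A1 with 95.9 and 121 CPM. Over the whole exon length SLC16A1 came first, with 56.7 CPM against 52.8 CPM in OLO. The order of levels per kilobase of the canonical transcript was BSG, SLC16A1, SLC4A2, SLC4A7, SLC16A3, CA2, CA12 and CA9 in OLO, and in OZO CA9 moved up to a place between SLC4A2 and SLC16A3. Over the whole exon length CA2 came before SLC16A3, with 0.189 against 0.166 CPM in OLO and 0.205 against 0.164 CPM in OZO. A spread over libraries was not at hand for these levels, so neighbours in the order were not tested against each other.

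Some of these genes share sequence with others. In GENCODE 44 an exon of CA9 overlaps one of ARHGEF39 on the opposite strand, and exons of SLC16A1, SLC16A3 and BSG overlap those of SLC16A1-AS1, CSNK1D and BSG-AS1 on the opposite strand. An exon of SLC4A2 overlaps that of a protein-coding gene without a symbol on the same strand and that of a long noncoding RNA on the opposite strand, and an exon of SLC16A3 overlaps the microRNA gene MIR6787 on the same strand. The libraries kept strand, but whether strand was used in counting is not given in the sources used here. SLC16A1-AS1 had 43.4 implied reads under OLO and 29.96 under OZO, far fewer than SLC16A1. CSNK1D had 1741 in OLO and 1677 in OZO, far more than SLC16A3. Without strand, reads in the exons that SLC16A3 and CSNK1D share could not be assigned to either gene, and how many of the reads fell there was not measured.

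The wider family was then described with 6 lists of 77 genes, carbonic anhydrases, bicarbonate transporters, sodium-proton exchangers, monocarboxylate transporters with their partners, proton channels and pumps, and acid sensors. All 77 were in the table, 7 were unread and 40 averaged 10 reads or more. CA9 is among those 40 only through its reads in OZO. Over the 77 genes, 2 were called higher (CA9 and SLC16A1) and 2 lower (SLC9A4 and SLC9B2), which is 4 genes beside the 7.04% of all genes. Without the 8 genes, 0 of the other 69 were called higher and 2 lower by the authors' limma fit, and 3 higher and 8 lower had an unadjusted p-value under 0.05, which 19.7% of all genes had. Of them, 34 averaged 10 reads or more, and their median log2 fold change was -0.02, with 16 positive and 18 negative values. The median over all genes averaging 10 reads or more was -0.01.

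Among the carbonic anhydrases, CA9 was the 1 gene of 15 to be called. Over all genes 7.04% were called, a share to hold beside each count of calls in this paragraph. The 7 that averaged 10 reads or more, CA9 included, had a median log2 fold change of 0.39, with 6 positive values and 1 negative. The other carbonic anhydrases with the most reads were CA13, a cytosolic form, with 254 implied reads under OLO and 250 under OZO, the mitochondrial CA5B with 171 and 215, and CA8, a form without catalytic activity, with 125 and 178. None of these 3 passed, with adjusted p-values of 0.838, 0.249 and 0.249, and they are named here after their values were seen. Of the 15 listed bicarbonate transporters none passed the adjusted threshold in the authors' limma fit, while 2 were higher and 1 lower at an unadjusted p-value under 0.05, beside the 19.7% of all genes that had such a p-value. Of the 14 exchanger genes 2 were called, both lower, beside the 7.04% of all genes called in either direction. SLC9B2, a sodium-proton exchanger of inner membranes, fell by 0.40 ± 0.06 (SE) in log2 units (adjusted p-value 0.0296), from an implied 330 to 250 reads. SLC9A4 passed with an adjusted p-value of 0.0231 but had at most 0.84 implied reads in either group, so no fold is given. Among the 17 monocarboxylate transporter genes SLC16A1 was the 1 called, beside the same 7.04%. None of the 7 proton channel and pump genes and none of the 9 acid sensor genes passed in that fit, and in each of these lists 1 gene, lower in OZO, had an unadjusted p-value under 0.05.

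**Figure D3:**
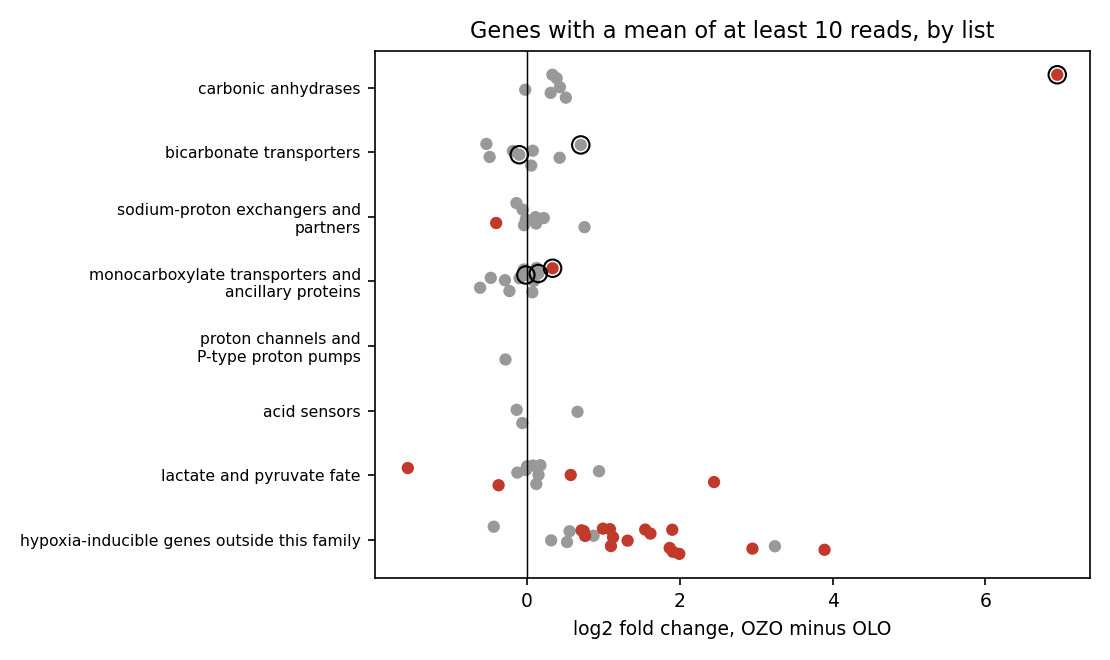
Log2 fold change, OZO minus OLO, of the listed genes averaging 10 reads or more, 1 row of points per list with vertical scatter for legibility. Red marks an adjusted p-value under 0.05 and rings mark CA9, SLC4A2, SLC4A7, SLC16A1, SLC16A3 and BSG. Of the 7 carbonic anhydrases shown 6 lie above 0, CA9 at 6.94 and the others between -0.02 and 0.51, the bicarbonate transporters lie 4 above and 4 below 0, and 16 of the 22 hypoxia-inducible genes are red and lie above 0.

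For context, the genes that decide how much lactate is made, and other hypoxia-inducible genes, were set beside this family. Both lists were drawn up with earlier results of these data known, so their counts are a description only. LDHA, which makes lactate from pyruvate, had 26222 implied reads under OLO and 50399 under OZO, a log2 fold change of 0.94 ± 0.19 (SE, adjusted p-value 0.0527). LDHB, the form that favours the reverse reaction, had 21176 and 23935 reads and an adjusted p-value of 0.161. Of the 14 genes of lactate and pyruvate fate 2 were higher and 2 lower, beside the 7.04% of all genes that passed. PDK1, a kinase that switches off pyruvate dehydrogenase, rose by 2.45 on the log2 scale (adjusted p-value 0.00465), whereas PDP1 and PDP2, phosphatases that switch it on, fell by 1.56 and fell by 0.37 (adjusted p-values 0.00563 and 0.0293). Of 22 hypoxia-inducible genes outside the family 16 were called higher and 0 lower by the authors' limma fit, with a median log2 fold change of 1.11, and 20 higher and 0 lower had an unadjusted p-value under 0.05. All 22 averaged 10 reads or more, and among all such genes 7.75% were called higher and 18% were higher at an unadjusted p-value under 0.05, while over the whole table the latter share was 10.1%. KDM3A, EGLN1 and PFKFB3 had the smallest p-values among them, with log2 fold changes of 1.99, 1.09 and 1.10. CA9 and SLC16A1 were called higher as well, and the other 6 of the 8 genes were not called. The intervals of SLC16A3 and CA12 include 0, so no direction is read for either. A shared cause of these changes was not tested.

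A further question was how many other genes went, as CA9 did, from the floor to a clear signal. Likeness was measured as at most 3 implied reads in OLO, an adjusted p-value under 0.05 as higher, and the number of implied reads in OZO, over the 2 groups. At most 3 implied reads in OLO were held by 12753 genes, of which 5741 were read in some library. Of the 12753, 58 had a symbol and were called higher, beside the 3.98% called higher over all genes. Called genes without a symbol were not counted. The median of these 58 in OZO was 3.7 implied reads, and 14 had over 10. CA9 had 127, which was 3.53 times the next value, and no other of the 12753 genes exceeded 100 reads in OZO. The 5 genes after CA9 were SPMIP6 with 36.04 implied reads in OZO, TBR1 with 35.3, GJB7 with 29.6, RNVU1-15 with 22.7 and APRG1 with 17.5. SPMIP6 encodes a sperm microtubule protein, TBR1 a transcription factor of cortical neurons, GJB7 a gap junction protein and RNVU1-15 a variant of the U1 small nuclear RNA, whose reads could be split among near-identical copies. Against the floor these 5 were at least 10.4-fold, 10.2-fold, 8.61-fold, 6.63-fold and 5.16-fold higher, in that order. The number of libraries behind each of these changes cannot be given from the comparison.

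**Figure D4:**
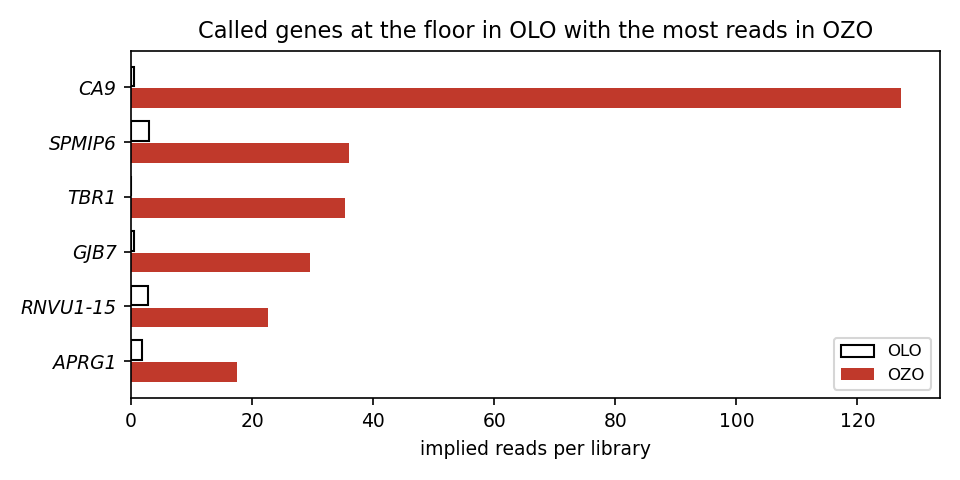
Implied reads per library in OLO (open bars) and OZO (red bars) of the 6 genes with the most OZO reads among the 58 called genes at or under 3 reads in OLO. CA9 reaches 127 reads in OZO, and the next gene, SPMIP6, reaches 36.04.

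The genes around CA9 were examined to see whether the change extended along the chromosome. Upstream, ARHGEF39, encoded on the opposite strand, starts 8732 bases before CA9 in RefSeq and runs away from it. The level of ARHGEF39 fell by 1.20 ± 0.15 (SE) in log2 units (adjusted p-value 0.0173), from an implied 302 to 131 reads. The next gene, CCDC107, had 8.38 implied reads under OLO and 4.22 under OZO and an adjusted p-value of 0.314. Downstream, TPM2, a tropomyosin gene on the opposite strand, runs toward CA9 and ends 833 bases beyond it. TPM2 had 1925 and 2288 implied reads with a log2 fold change of 0.25 ± 0.10 (SE, adjusted p-value 0.249). TLN1, which encodes talin, had 5103 and 5438 with a log2 fold change of 0.09 ± 0.04 (SE, adjusted p-value 0.249). Within 200 kb of CA9 lay 24 other genes of the table, 11 of them averaging 10 reads or more, and 1 was called higher and 1 lower, a count near the 7.04% of all genes. The higher one, CIMIP2B, lies 110 kb before CA9 and went from an implied 0.61 reads to 14.2, at least 4.19-fold higher against the floor, with an adjusted p-value of 0.0463. CIMIP2B was singled out after its values were seen, and it touches the end of RUSC2, which lies on the opposite strand and had 481 and 637 implied reads.

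**Figure D5:**
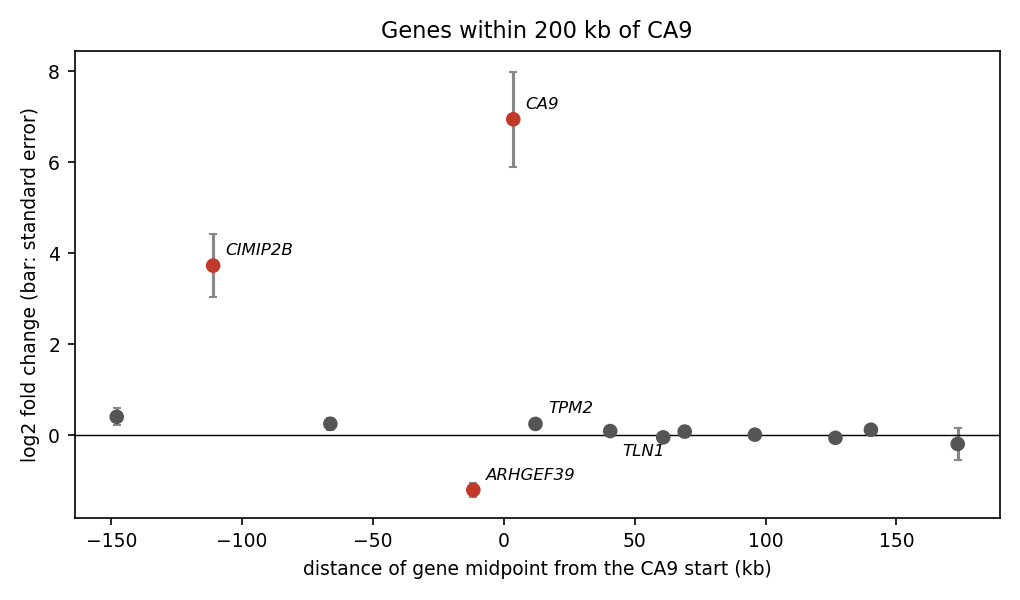
Log2 fold change, OZO minus OLO, with its standard error as bars, of the genes within 200 kb of CA9 that averaged 10 reads or more, and of CIMIP2B, plotted by the distance of the gene's midpoint from the CA9 start in kb. Red marks an adjusted p-value under 0.05. CA9 and CIMIP2B lie above the other genes, ARHGEF39 is lower at -1.20, and TPM2 and TLN1 lie near 0.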

How the data were processed

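RNA-seq of A375 cells (3 OLO and 3 OZO libraries, strand-specific kit, paired ends) was processed by the authors with HISAT2 2.1.0 (hg38), featureCounts 2.1.1 and limma-voom 3.58.1. Normalization factors, filters and the use of strand are not given in the sources used here. The deposited table holds only that comparison, which is therefore used here and credited throughout: it gives, as deposited, a log2 fold change and a mean log2 CPM per gene, a score (the moderated t of limma), and the p-value of that score with its adjustment over all rows. The direction, treated minus control, was read as OZO minus OLO. Per-library values were not analysed here, so no new test was fitted.

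The standard error is the fold change divided by t, and 95% intervals use the degrees of freedom that link each t to its p-value. Voom adds 0.5 to each count, so the lowest mean gives the library size (18409903 counted fragments, geometric mean) and implied reads follow. The floor is 3 reads per library. A bound against it takes the implied OZO reads as exact and leaves out the spread between libraries, which the 95% intervals include. The depth of each library is unknown, but the 2 groups differed. Genes without a read carry only the added 0.5 and the library size. Their fold of 1.26 in OZO over OLO means that libraries, as sized in the fit, were larger in OLO. Levels per kilobase use the GENCODE 44 canonical transcript. All levels in CPM keep the added 0.5, which is taken off the implied reads. Coordinates and promoters are RefSeq GRCh38.p14, the assembly hg38 denotes. The median log2 fold change of all genes was 0.19, and 7012 unread genes each had 0.33.

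The genes and lists were chosen with earlier results of these data known. Named genes are the 8, listed acid or bicarbonate genes that passed, LDHA, LDHB, up to 3 called genes per context list, the 5 genes most like CA9 and the 2 nearest genes on each side of it. Python 3.11.15 was used. Alternatives were thresholds, a 2-fold minimum, a filter on reads, centring, the floor and the length.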

Additional observations from a re-analysis of the deposited data

How the results depend on the processing

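No paired analysis was possible because the table holds the comparison only, and for the same reason leaving out each replicate was not run, so how far 1 library decides any value was not tested. Of the 8 genes 2 were called. This became 0 at an adjusted p-value of 0.01 and 1 (CA9) with a 2-fold minimum, and was 2 under the other settings, but with all genes' median as the centre the 2 were CA9 and SLC4A2, the latter lower at -0.29, and not SLC16A1. Of the 77 listed genes 4 were called. For these, 0 passed 0.01, 7 passed 0.1 and 2 passed a 2-fold minimum. The count was 8 (1 higher and 7 lower) with that centre, which subtracts 0.19 and includes 7012 unread genes at 0.33 each. With the median of genes averaging 10 reads or more as the centre the count was 4. With a floor of 1 read the CA9 bound was 85.2-fold in place of 36.5-fold. The 16 calls among the 22 hypoxia-inducible genes, whose alternatives were added after seeing the data, became 4 at 0.01 and ranged from 12 to 18 otherwise, with 0 lower.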

Other observations

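For genes with few reads the mean expression holds more than a mean, because the product of 2 × reads + 1 over the 6 libraries comes out as an odd whole number. It was within 0.001 of one for 100% of the 15294 genes with a product under 1000000000. For CA9 the product was 150260565, with the prime factors 3, 5, 7, 13, 31, 53 and 67, so at least 1 library held 33 or more CA9 reads. With equal weights for the libraries, the fitted log2 fold change of 6.94 lies nearest to an OLO product of 13, which gives 6.92, as from 6 reads in 1 library and none in the others. The next nearest OLO product was 15, which gives 6.78. The weights of the fit are not known here, so neither split is a measurement. For CA2 the product was 9493939, with the factors 7, 13, 17 and 19, of which 17 and 19 occur 2 times each. Counts of 3, 6, 8, 8, 9 and 9 reads would give this product, and other splits would too.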
